A study of Mus musculus with 44 samples.

Results

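Structural genes of the basement membrane were followed through the embryonic and extraembryonic origins of the mouse gut endoderm. They were chosen by name and comprised the laminin chain genes Lama1, Lama2, Lama5, Lamb1 and Lamc1, the collagen IV chain genes Col4a1 and Col4a2, the nidogen gene Nid1, the perlecan gene Hspg2 and the matricellular gene Sparc, which make 10 of the 32287 gene identifiers in the expression tables. Their levels were read in 44 low-input poly(A) RNA-seq libraries of 12 groups, as TPM (transcript abundance scaled to a fixed total per library). This scale is corrected for transcript length. Read depth per TPM still differed between genes, so genes can be compared with each other only roughly.

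The embryos were chimeras in which GFP+ mouse embryonic stem cells, a male line, formed the embryonic lineage and an mCherry+ host morula supplied the extraembryonic lineage. Origin therefore changed together with the source of the cells and with the reporter, and the host could be of either sex. GFP was driven by the CAG promoter at Rosa26 and mCherry by a PiggyBac transgene, and neither is specific to a tissue. At E6.5, epiblast (Epi), distal extraembryonic endoderm overlying it (exEndo 1) and proximal extraembryonic endoderm (exEndo 2) were dissected by hand from single embryos after enzyme treatment, in 4 libraries each. At E9.5, small pools of sorted cells came from yolk sac endoderm (YsEndo) and from midgut and hindgut of extraembryonic (exMidgut, exHindgut) or embryonic origin (emMidgut, emHindgut), in 4 libraries each. Each midgut or hindgut replicate came from the tissue of 4 pooled embryos, and the methods give no such number for the yolk sac. Per the methods, yolk sac and gut cells were all sorted as EPCAM+, and the midgut and hindgut cells alone were first enriched for EPCAM with magnetic beads. At E13.5, EPCAM+ cells were sorted from the small intestine and colon of single embryos, in 3 libraries each: the extraembryonic cells (exSI, exColon) carried a Trp53 KO made with Cas9 in the zygote, and the embryonic cells (emSI, emColon) were WT for Trp53, so that origin and Trp53 genotype cannot be told apart at that stage. The embryonic gut cells of E9.5 were not GFP-only: they were sorted as positive for both reporters with low mCherry, which the study's methods describe as embryonic cells holding remnants of extraembryonic ones, whereas those of E13.5 were sorted on GFP. Per the methods, replicates were individual embryos at E6.5 and E13.5 and embryo pools at E9.5. Midgut and hindgut, or small intestine and colon, could come from the same embryos or pools, as could both origins, and the labels do not say which libraries did, so that comparisons over 2 regions or organs may rest on fewer independent embryos or pools than libraries, and their p-values may then be too small.

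A basement membrane is a thin sheet of extracellular matrix under epithelia. Laminins are heterotrimers of an alpha, a beta and a gamma chain that polymerise at the cell surface, and the alpha chain sets which receptors they bind. Collagen IV forms a second, covalently linked network, and nidogen and the heparan sulfate proteoglycan perlecan bridge both networks. SPARC is a secreted glycoprotein that binds collagens. In the early mouse embryo the visceral endoderm lays down the basement membrane against the epiblast, and the parietal endoderm lays down the much thicker Reichert's membrane.

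Col4a1 and Col4a2 lie head to head and are transcribed away from each other, so their start regions are shown here beside the pair of transcripts that they give. In RefSeq annotation of GRCm38.p6 (mm10), the windows from 250 bases before to 50 bases after each start share 78 bases, because the annotated starts lie 21 bases apart with the first exons overlapping. Col4a1 occupies the minus strand (window chr8:11312777-11313076) and Col4a2 the plus strand (window chr8:11312555-11312854). Capitals mark GC boxes (GGGCGG or its complement CCGCCC) and CCAAT boxes (CCAAT or its complement ATTGG), searched on both strands with no overlap between the letters of both motifs.
Col4a1: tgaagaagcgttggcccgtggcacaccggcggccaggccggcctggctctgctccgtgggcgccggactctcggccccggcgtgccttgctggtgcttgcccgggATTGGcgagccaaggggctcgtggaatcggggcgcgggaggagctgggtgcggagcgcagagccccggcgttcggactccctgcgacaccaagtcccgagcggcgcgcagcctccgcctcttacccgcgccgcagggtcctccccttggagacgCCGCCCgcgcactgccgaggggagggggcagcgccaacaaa
Col4a2: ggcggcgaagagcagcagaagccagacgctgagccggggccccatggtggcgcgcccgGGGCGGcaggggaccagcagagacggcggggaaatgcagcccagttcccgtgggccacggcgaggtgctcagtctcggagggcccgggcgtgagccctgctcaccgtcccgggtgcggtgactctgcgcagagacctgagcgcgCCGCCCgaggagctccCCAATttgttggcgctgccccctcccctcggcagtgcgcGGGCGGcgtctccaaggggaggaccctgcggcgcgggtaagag
The Col4a1 window held 1 GC box and 1 CCAAT box and the Col4a2 window held 3 and 1, and the GC content was 74.0% and 73.7%. The Col4a1 GC box, at position 10, lies in the shared bases and is the same site as the Col4a2 GC box at position 8, so it is counted in both windows. Of all 32851 promoter windows of the same length, 35.7% held a GC box and 37.4% a CCAAT box, and the median GC content was 52.7%. These letter matches describe the windows only. The RefSeq table held 8 of the 10 members. The Hspg2 window held 5 GC boxes, the Lama5 window 4, the Lamb1 window 2, and the Nid1 and Lama2 windows 1 each, while the Lamb1 and Nid1 windows held 1 CCAAT box each and Sparc neither motif.

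In the mm10 coordinates of the expression tables, the other members lie apart from each other. Lama1 spans chr17:67697259-67822647 on the plus strand, Lama2 chr10:26980036-27619758 on the minus strand and Lama5 chr2:180176373-180225859 on the minus strand. Lamb1 spans chr12:31265234-31329644 (plus), Lamc1 chr1:153218922-153332786 (minus), Nid1 chr13:13437551-13512269 (plus), Hspg2 chr4:137468769-137570630 (plus) and Sparc chr11:55394500-55423183 (minus). The gene bodies of Col4a1 (chr8:11198423-11312826, minus) and Col4a2 (chr8:11312805-11449287, plus) overlap only at their starts.

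Between 10382 and 13596 genes were above 1 TPM in a library. At the median of well-expressed genes, 1 TPM corresponded to a mean depth of 0.988 to 3.71 reads per base by library, so that values near 1 TPM rest on few reads. Single genes could depart from this median: Lama2 had 29.97 TPM but a depth of 4.68 reads per base in emColon replicate 2. The reporters matched the labels: mCherry had medians of 3306 to 7521 TPM in every extraembryonic group and at most 6.60 TPM in any embryonic library. EGFP lay between 180 and 880.2 TPM in the embryonic libraries and at most 15.9 TPM in the extraembryonic ones. Trp53 was at 33.4, 117 and 167 TPM in exSI and 42.5, 122 and 124 TPM in exColon, against 158, 172 and 201 TPM in emSI and 151, 226 and 245 TPM in emColon. A Cas9 lesion need not remove the transcript, so this level does not check the genotype. The 6 visceral endoderm markers summed to medians of 7053 to 66000 TPM in exEndo 1, exEndo 2 and YsEndo and to 3.59 TPM in Epi, and the 5 epiblast markers to 3834 TPM in Epi. Libraries that stood apart are named beside the results that they touch. Since these are bulk samples, fewer cells of a type and less RNA per cell cannot be told apart.

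**Figure D1:**
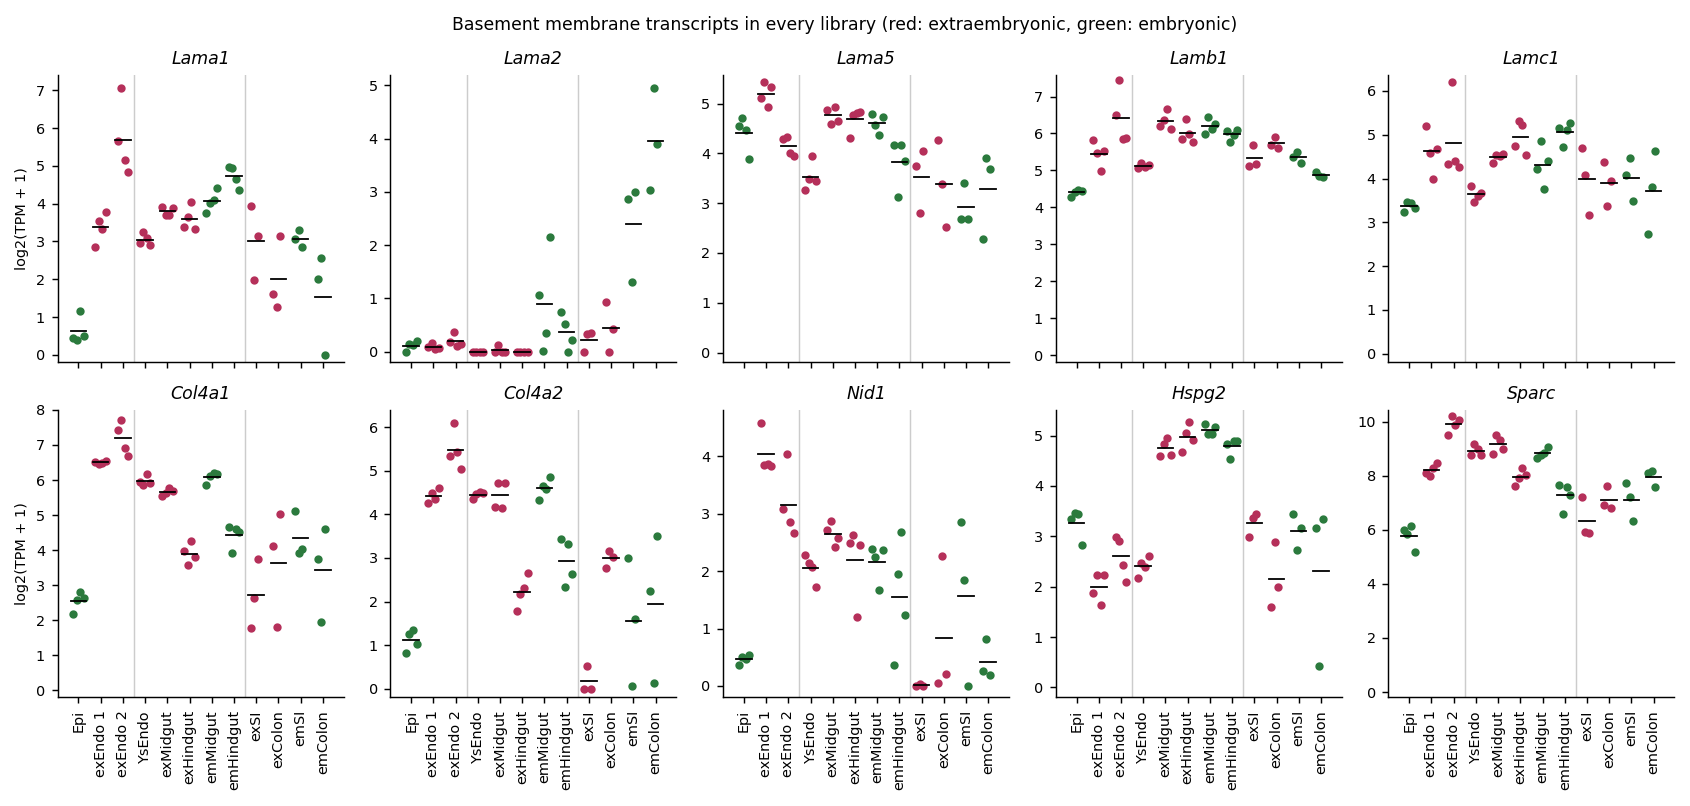
Expression of the 10 members as log2(TPM + 1), 1 point per library and a bar at the group mean, for the 12 groups in order of stage (grey lines separate E6.5, E9.5 and E13.5). Each panel has its own vertical scale. Lama1, Col4a1, Col4a2 and Sparc peak in exEndo 2, Hspg2 peaks in the E9.5 gut, and Lama2 rises above 5 TPM only in emSI and emColon libraries.

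At E6.5 the collagen IV genes, Nid1, Sparc and Lama1 were higher in the distal extraembryonic endoderm than in the epiblast that lies against it, and Hspg2 ran the other way. The summed TPM of the laminin alpha chain genes had a median of 46 in exEndo 1 and 23.4 in Epi. Of the 9 members that passed the filter on low values (above 1 TPM in at least 4 of the 8 libraries), 7 rose and 1 fell in exEndo 1 against Epi, beside 33.4% of all 12057 genes tested that were called. A call here means an adjusted p under 0.05 with an absolute log2 difference over 1 (limma on log2(TPM + 1), Benjamini-Hochberg adjusted over all genes tested, two-sided). The median log2 difference was 2.42 over these 9 members and 0.09 over all genes tested. The groups did not overlap for any of the 9, beside 56.6% of all genes tested without overlap in this contrast. On the Epi libraries alone Lama1, Col4a2 and Nid1 would not have passed the filter, here or in the other contrasts with Epi, so their differences were fixed in part by it. Lama2, the alpha chain gene of the muscle and nerve laminin, did not pass and stayed between 0 and 0.294 TPM in all 12 libraries of this stage.

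Col4a1 varied little within exEndo 1. Its level was 3.53, 5.02, 5.99 and 5.22 TPM in the Epi libraries and 89.9, 87.8, 89.4 and 91.9 TPM in exEndo 1, and the groups lay far apart. The log2 difference was 3.95 ± 0.15 (SE, n = 4 and 4, limma adjusted p = 4.5e-09). Col4a2 followed it, with 0.764, 1.39, 1.55 and 1.03 TPM in Epi and 18.2, 21.5, 19.6 and 23.4 TPM in exEndo 1 (3.32 ± 0.17, limma adjusted p = 4.21e-08). Nid1 rose from 0.293 to 0.458 TPM in Epi to 22.9, 13.3, 13.6 and 13.3 TPM in exEndo 1 (3.56 ± 0.20, limma adjusted p = 6.35e-08). Sparc was at 63.4, 56.1, 69.6 and 34.8 TPM in Epi and 271, 255, 309 and 352 TPM in exEndo 1 (2.42 ± 0.20, limma adjusted p = 1.4e-06).

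The laminin chains differed among themselves. Lama1, the alpha chain gene of an early embryonic laminin, was at 0.354, 0.306, 1.24 and 0.418 TPM in Epi and at 6.21, 10.6, 9.13 and 12.7 TPM in exEndo 1, again with no overlap (2.75 ± 0.24, limma adjusted p = 2.13e-06). Lamc1, the gamma chain gene shared by most laminins, rose from 8.49 to 10 TPM to between 15.0 and 35.9 TPM (1.25 ± 0.23, limma adjusted p = 0.000518). Lamb1, its beta chain partner, went from 18.4 to 21.3 TPM to between 30.4 and 56.0 TPM, and its log2 difference of 1.04 ± 0.18 (limma adjusted p = 0.00034) lay just over the threshold. It fell under a log2 difference of 1 with median-ratio scaling (0.90), on FPKM values (0.95) and without exEndo 1 replicate 1 (0.92). Lama5, the alpha chain gene of most mature epithelia, was already high in Epi, at 22.5, 25.2, 21.2 and 13.8 TPM, and reached 33.6, 42.1, 29.4 and 39.1 TPM in exEndo 1. The groups did not overlap, but the log2 difference of 0.79 ± 0.19 (limma adjusted p = 0.00394) was under the fold threshold. Hspg2 fell by 1.28 on the log2 scale (SE 0.21, limma adjusted p = 0.000248), from 9.09, 10.1, 9.87 and 6.14 TPM in Epi to 2.68, 3.69, 2.10 and 3.69 TPM in exEndo 1.

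Proximal and distal endoderm differed in which laminin alpha chain gene gave most transcript. Lama1 was at 49.6, 132.5, 34.4 and 27.8 TPM in exEndo 2, above every exEndo 1 library, and the exEndo 1 level was lower by a log2 difference of -2.31 ± 0.40 (limma adjusted p = 0.00328). Lama5 was at 18.5, 19.2, 15.1 and 14.5 TPM in exEndo 2, below every exEndo 1 library, with a log2 difference of 1.05 ± 0.16 in favour of exEndo 1 (limma adjusted p = 0.00123). In this contrast the groups did not overlap for 6 of the 9 members tested, beside 19.6% of all genes tested. As a share of the summed TPM of the 5 laminin alpha chain genes, Lama1 took 65.1% to 86.9% in exEndo 2, 15.5% to 24.4% in exEndo 1 and 1.17% to 5.29% in Epi, while Lama5 took 12.6% to 33.9%, 75.1% to 84.0% and 90.4% to 96.4%. The 3 ranges of each gene did not overlap. Lama3 and Lama4, the other alpha chain genes, took at most 1.54% and 4.37% of the sum in any E6.5 library. The epiblast markers summed to 367 to 522 TPM in exEndo 1 and 173 to 228 TPM in exEndo 2, and the 3 extraembryonic ectoderm markers to 35.6 to 88.4 TPM and 6.71 to 25.3 TPM. Epi had the highest Lama5 share, and the part of these cells in the alpha chain difference was not tested.

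Sparc was lower in exEndo 1 than in exEndo 2, where it stood at 726, 1169, 944 and 1057 TPM (log2 difference -1.70 ± 0.15, limma adjusted p = 5.07e-05). Col4a2 had 39.7, 67.6, 42.2 and 31.9 TPM in exEndo 2 (-1.05 ± 0.20, limma adjusted p = 0.00607). Col4a1 had 171, 209, 120 and 103 TPM there, above every exEndo 1 library, with a log2 difference of -0.69 ± 0.19 that was under the fold threshold (limma adjusted p = 0.0361). In all, 1 of the 9 members that passed the filter was higher and 3 were lower in exEndo 1 than in exEndo 2, beside 6.41% of all genes tested. Lamb1, Lamc1, Nid1 and Hspg2 did not pass the test.

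Library exEndo 2 replicate 2 stood apart for the laminin trimer and Nid1. It had 72.6 TPM of Lamc1 against 18.3 to 20.1 TPM in the other 3 libraries, 172 TPM of Lamb1 against 57.0 to 89.5 TPM, and 15.3 TPM of Nid1 against 5.30 to 7.47 TPM. Without it, Nid1 was higher in exEndo 1 (log2 difference 1.17, limma adjusted p = 0.00926), Col4a2 fell under the fold threshold (-0.84, limma adjusted p = 0.00786) and Lamc1 changed sign without passing the test (0.28). Of the 4 parietal endoderm markers, Pth1r was at 103, 156, 123 and 125 TPM in exEndo 2 against 17.3 to 36.3 TPM in exEndo 1. Plat was at 7.96 TPM in replicate 2 and 1.30 to 2.50 TPM in the others, Snai1 was at 3.35 to 4.85 TPM, and Thbd stayed at or under 0.2652 TPM in all 8 libraries. The list summed to 109 to 169 TPM in exEndo 2 and 22.6 to 41.2 TPM in exEndo 1, and its part in the difference was not tested.

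Against Epi, exEndo 2 called 7 of the 9 members that passed the filter, all higher, beside 35.8% of all genes tested. The largest log2 differences were 5.06 ± 0.40 for Lama1, 4.64 ± 0.23 for Col4a1, 4.37 ± 0.23 for Col4a2 and 4.12 ± 0.21 for Sparc (limma adjusted p = 4.7e-07, 7.84e-09, 1.41e-08 and 1.14e-08). Lama5 and Hspg2 did not pass the test, at -0.26 ± 0.19 and -0.67 ± 0.23. Both E6.5 contrasts share the Epi libraries. Lamc1, at 1.43 ± 0.36 here, fell under the fold threshold without exEndo 2 replicate 2 (0.97).

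**Figure D2:**
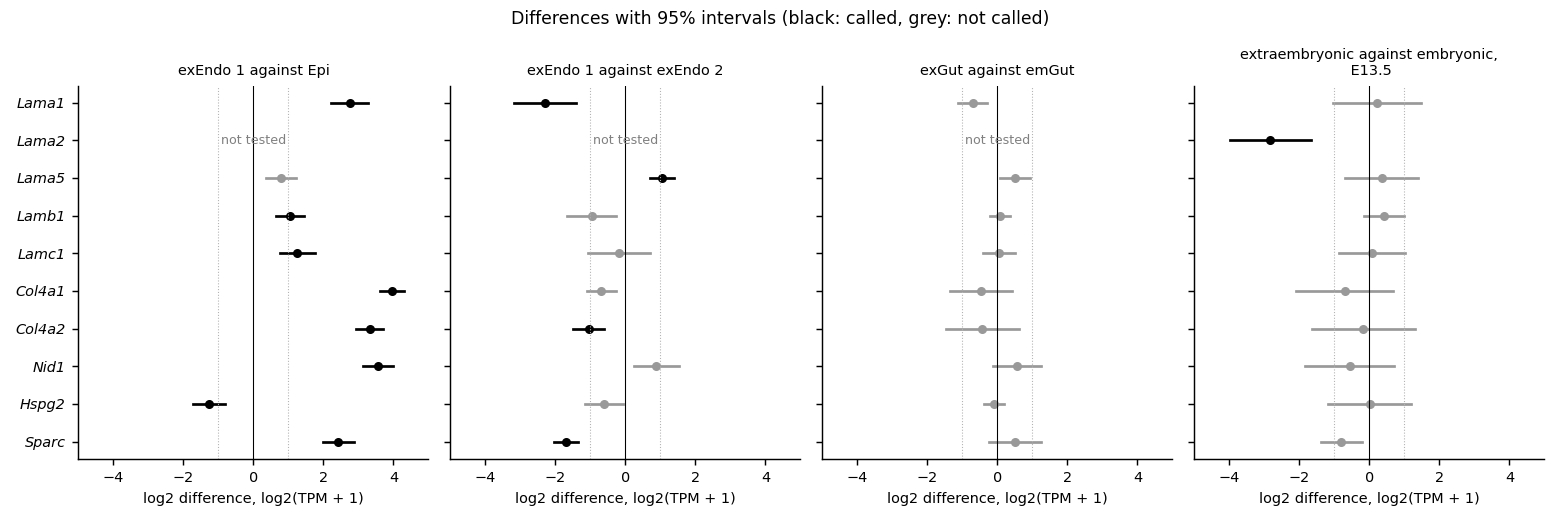
Log2 differences of each member on the log2(TPM + 1) scale, as points with 95% limma intervals, in 4 comparisons; dotted lines mark an absolute difference of 1. Black intervals cluster in the E6.5 panels, the gut panel at E9.5 holds none, and Lama2 alone is called at E13.5.

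**Figure D3:**
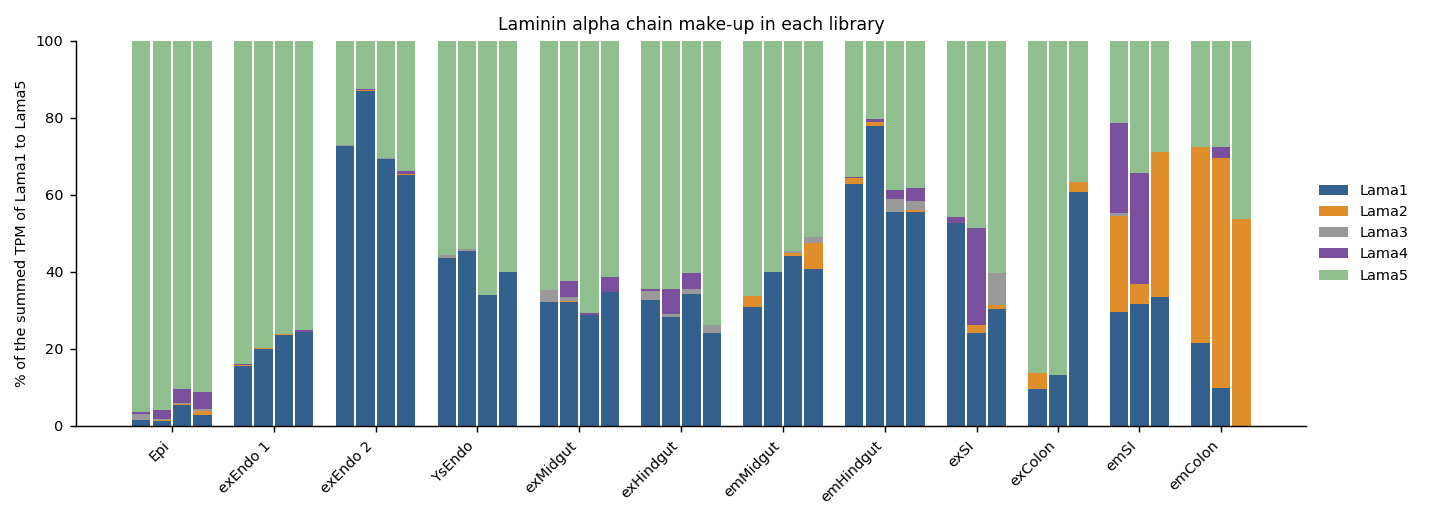
Share (%) of each laminin alpha chain gene in the summed TPM of Lama1 to Lama5, 1 bar per library. Lama5 dominates in Epi and exEndo 1, Lama1 takes 65.1% or more in exEndo 2 and 55.5% or more in emHindgut, and Lama2 takes 51.1% or more in emColon. By coverage, Lama2 lies below Lama5 in every emColon library.

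At E9.5 no member passed the test between gut cells of extraembryonic and embryonic origin over both gut regions. None of the 9 members that passed the filter was called in exGut (exMidgut and exHindgut, 8 libraries) against emGut (8 libraries), beside 2.35% of all 13473 genes tested, of which 2225 had an unadjusted p under 0.05. A p that misses the threshold does not show that the levels were alike, and the intervals bound the difference. They were narrowest for Hspg2 (-0.38 to 0.20) and Lamb1 (-0.20 to 0.35), where a log2 difference of 1 lies outside the 95% interval. They were widest for Col4a2 (-1.48 to 0.62), Col4a1 (-1.36 to 0.40) and Sparc (-0.24 to 1.25). This fit pools midgut and hindgut without a term for region. With gut region as covariate the calls over all genes went from 316 to 587 and still held no member, while Lama1 (-0.70), Col4a1 (-0.48) and Sparc (0.50) passed the adjusted p under the fold threshold (limma adjusted p = 0.0244, 0.0322 and 0.0253). Within the midgut the Col4a1 interval ran from -0.79 to -0.08. Lama2 did not pass the filter: it was listed at 0 in 7 of the 8 exGut libraries and reached 0 to 3.44 TPM in emGut.

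Lama1 came nearest to a difference. It was at 13.98, 11.9, 12.1 and 13.8 TPM in exMidgut and 9.51, 11.6, 15.4 and 9.01 TPM in exHindgut, against 12.4, 15.2, 16.0 and 20.5 TPM in emMidgut and 30.2, 29.8, 24.2 and 19.5 TPM in emHindgut. The emHindgut libraries were the highest and lay above every other gut library except emMidgut replicate 4. Over both regions the log2 difference was -0.70 ± 0.20 (limma adjusted p = 0.0575). In exHindgut against emHindgut alone it was -1.13 ± 0.25 (limma adjusted p = 0.0174) and Lama1 was the single member called, beside 3.07% of all genes tested. This call was lost without emHindgut replicate 1 or without emHindgut replicate 2. Lama5 moved the other way in the hindgut, with 18.7, 26.5, 27.0 and 27.7 TPM in exHindgut and 17.0, 7.75, 16.9 and 13.4 TPM in emHindgut. These groups did not overlap, as in 11.9% of all genes tested in this contrast, but the difference of 0.85 ± 0.27 did not pass the test (limma adjusted p = 0.0892). The Lama1 share of the alpha chains was accordingly 55.5% to 77.8% in emHindgut and 24.1% to 34.3% in exHindgut, and in the midgut it was 30.9% to 44.1% (emMidgut) and 28.8% to 34.8% (exMidgut).

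In exMidgut against emMidgut, 0 of the 9 members that passed the filter were called, beside 2.58% of all genes tested by limma (2054 of 12432 had an unadjusted p under 0.05). Lama1 was at -0.27 ± 0.28 there. Col4a1 and Hspg2 lay below every emMidgut library in all 4 exMidgut libraries and Nid1 lay above, with log2 differences of -0.43 ± 0.17, -0.36 ± 0.21 and 0.48 ± 0.38 that did not pass the test (limma adjusted p = 0.189, 0.417 and 0.589). Groups did not overlap in 10.3% of all genes tested in this contrast. The origin by region interaction, which tests whether the origin difference differed between hindgut and midgut, called 0 of these members, beside 0.0965% of all genes tested by limma (1052 had an unadjusted p under 0.05). The interaction was -0.86 ± 0.35 for Lama1 (limma adjusted p = 0.524) and 0.71 ± 0.34 for Lama5 (limma adjusted p = 0.642), so the hindgut difference was not shown to differ from that in the midgut. The mesenchymal marker list summed to 41.8 to 68.3 TPM in emHindgut and 23.9 to 32.6 TPM in exHindgut, and its part in the Lama1 difference was not tested.

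Along the gut, the collagen IV genes and Sparc were lower in hindgut than in midgut in both origins. Col4a1 was at 57.4, 69.0, 72.7 and 70.7 TPM in emMidgut and 24.4, 14, 23.2 and 22.1 TPM in emHindgut, with no overlap, as in 26% of all genes tested. Its hindgut level was lower by a log2 difference of -1.67 ± 0.20 (limma adjusted p = 2.23e-05). In exMidgut it was at 45.5, 48.6, 53.6 and 50.4 TPM and in exHindgut at 14.6, 10.9, 18.3 and 13 TPM (-1.75 ± 0.22, limma adjusted p = 0.000107). Col4a2 was lower in hindgut by -1.67 ± 0.30 in the embryonic and -2.22 ± 0.34 in the extraembryonic cells, and Sparc by -1.56 ± 0.19 and -1.20 ± 0.16 (limma adjusted p = 0.000804, 0.00044, 2.64e-05 and 0.00017). These 3 genes were the members called in emHindgut against emMidgut, beside 13.9% of all genes tested, and in exHindgut against exMidgut, beside 11.3%. Lama5 in the embryonic cells was lower in hindgut by -0.79 ± 0.27, under the fold threshold (limma adjusted p = 0.0419), and Lamc1 was higher by 0.74 ± 0.24, also under it (limma adjusted p = 0.0379). Visceral endoderm markers fell along the same axis, from 7011 to 16780 TPM in exMidgut to 112 to 680 TPM in exHindgut, and from 1429 to 3137 TPM in emMidgut to 26.7 to 85.7 TPM in emHindgut. Their part in the collagen IV difference was not tested.

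The ratio of Col4a1 to Col4a2 TPM was between 1.91 and 6.01 in all 32 libraries of E6.5 and E9.5. The chains assemble as trimers with a larger number of the Col4a1 product, which is background to the ratio and was not tested here. At E13.5 the ratio ran from 0.312 to 288 where Col4a2 was above 0, and Col4a2 was listed at 0 in exSI replicates 1 and 3, where Col4a1 was at 2.46 and 12.5 TPM. The ratio of Lamb1 to Lamc1 stayed between 1.16 and 6.29 in all 44 libraries. Both ratios hold for TPM and can differ by coverage. In Epi replicate 1, Lamb1 had 18.4 TPM at 49.68 reads per base and Lamc1 had 8.49 TPM at 38.15.

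**Figure D4:**
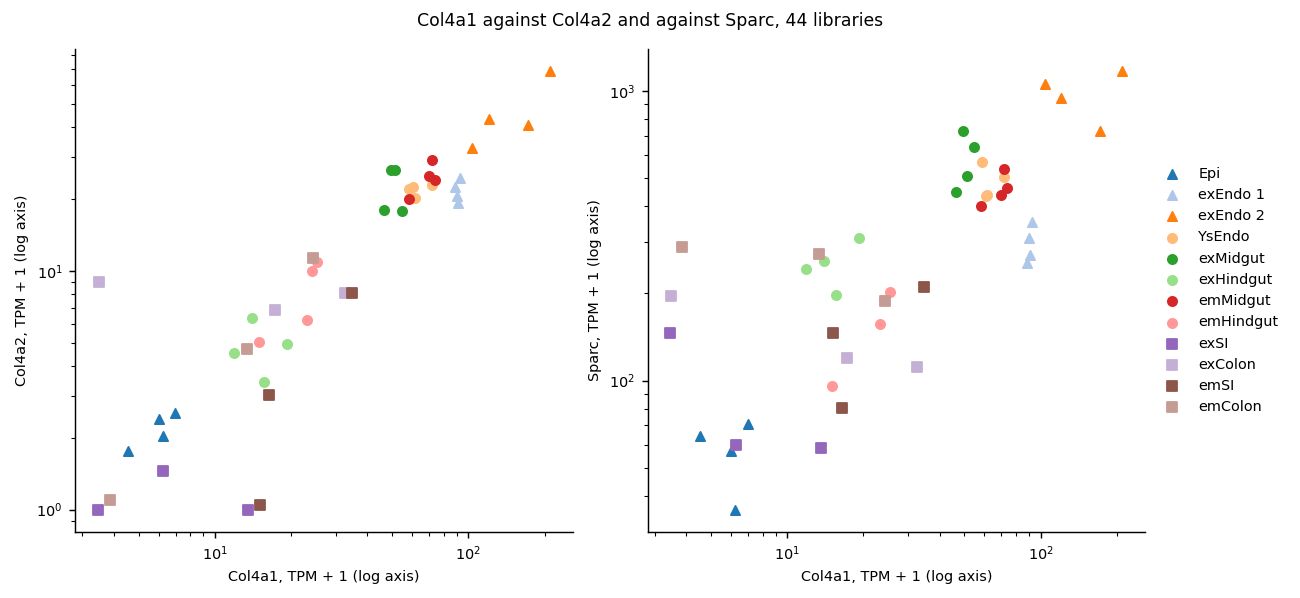
TPM + 1 of Col4a1 in each of the 44 libraries against that of Col4a2 (left) and Sparc (right), on log axes, with triangles for E6.5, circles for E9.5 and squares for E13.5. The 32 libraries of E6.5 and E9.5 lie along a band in the left panel, and the E13.5 libraries scatter more widely.

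Extraembryonic gut cells were also compared with yolk sac endoderm, which shares their origin. Hspg2 was at 3.52, 4.57, 4.24 and 5.12 TPM in YsEndo and at 23.0 to 30.0 TPM in exMidgut and 24.5 to 37.7 TPM in exHindgut, with a log2 difference of 2.45 ± 0.18 (limma adjusted p = 5.36e-08). Lama5 was at 8.61 to 14.5 TPM in YsEndo and 18.7 to 29.6 TPM in exGut (1.19 ± 0.18, limma adjusted p = 5.26e-05), and Lamb1 at 32.4 to 36.1 TPM against 53.7 to 99.6 TPM (1.04 ± 0.16, limma adjusted p = 5.88e-05). Lamc1 differed by 1.08 ± 0.21 (limma adjusted p = 0.000389). Col4a1 was lower in exGut, with 57.6 to 70.8 TPM in YsEndo against 10.9 to 53.6 TPM (-1.20 ± 0.43, limma adjusted p = 0.0249). Of the 9 members that passed the filter, 4 were higher and 1 was lower, beside 42.4% of all genes tested. All genes tested had a median log2 difference of 0.59 in this contrast, and 0.16 after median-ratio scaling. On that scaling Lama5 (0.73), Lamb1 (0.57) and Lamc1 (0.63) were under the fold threshold, Col4a2 was called as lower (-1.57, limma adjusted p = 0.0234), Nid1 changed sign without passing the test (-0.01), and Hspg2 and Col4a1 kept their calls. The Col4a1 call was lost without YsEndo replicate 3 (limma adjusted p = 0.0616). The visceral endoderm markers summed to 59160 to 68670 TPM in YsEndo, and their part in these differences was not tested.

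Against the proximal endoderm of E6.5, YsEndo was lower in 6 of the 9 members that passed the filter, beside 29.6% of all genes tested. Lama1, at 6.75, 8.54, 7.46 and 6.55 TPM in YsEndo, was lower by a log2 difference of -2.63 ± 0.36 (limma adjusted p = 3.84e-05). Sparc, at 438, 568, 503 and 432 TPM in YsEndo, differed by -0.99 ± 0.14, just under the fold threshold. The median of all genes tested was -0.41 here and -0.06 after median-ratio scaling, on which Lama1 was the member still called of those 6, and 2 of the 6 kept their calls without exEndo 2 replicate 2.

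At E13.5 Lama2 separated the origins. It was at 6.28, 1.47 and 7.03 TPM in emSI and 7.20, 30.0 and 13.9 TPM in emColon, against 0, 0.259 and 0.274 TPM in exSI and 0.914, 0 and 0.337 TPM in exColon. Every embryonic library lay above every extraembryonic library, and emColon replicate 2 was the highest. Groups did not overlap in 1.16% of all genes tested in this contrast. The coverage of Lama2 was low for these TPM values, at 0.481, 0.618 and 1.26 reads per base in emSI and 1.46, 4.68 and 2.27 in emColon. In exSI and exColon it was at most 0.179 reads per base. The level of Lama2 in TPM is therefore uncertain, and the reason for the low coverage was not tested. The extraembryonic level was lower by a log2 difference of -2.84 ± 0.55 (6 libraries against 6, limma with organ as covariate, adjusted p = 0.0171). Each intestine of 1 embryo was split into both organs, so 6 libraries may stand for 3 embryos. Lama2 passed the filter through the embryonic libraries alone, so that a difference was fixed in part by the filter. It was the single member called of the 10 that passed, beside 0.625% of all 12483 genes tested. Within organs the Lama2 groups did not overlap either, as in 16% of all genes tested in colon and 15.7% in small intestine, with -3.51 ± 0.88 in colon and -2.16 ± 0.75 in small intestine (limma adjusted p = 0.2 and 0.307, 3 libraries against 3). In exColon against emColon 0 of the 9 members that passed were called, beside 0.269% of all genes tested by limma (1106 had an unadjusted p under 0.05). In exSI against emSI 0 of 8 were called, beside 0.738% of all genes tested by limma (1174 had an unadjusted p under 0.05).

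Mesenchymal markers differed among these libraries. The list of 8 summed to 432 and 112 TPM in emSI replicates 1 and 2, with Col3a1 at 203 and 43.9 TPM and Col1a2 at 77.4 and 23.6 TPM, and to 1.93 TPM in emSI replicate 3, where Col1a1, Col1a2, Col3a1 and Foxf1 were listed at 0. It summed to 6.49 to 12.4 TPM in emColon and 0.0204 to 7.56 TPM in the extraembryonic libraries, in all of which Col1a1, Col1a2 and Foxf1 were listed at 0. Lama2 was at 7.03 TPM in emSI replicate 3 and highest in emColon, and the part of mesenchymal cells in its difference was not tested. Without emSI replicates 1 and 2, an alternative chosen after seeing the data, Lama2 differed by -3.27 (limma adjusted p = 0.0257). Lama4, an alpha chain gene of mesenchymal and vascular laminins, was at 5.84 and 8.02 TPM in those 2 libraries and at 0 in emSI replicate 3. It also took 25.3% of the alpha chain sum of 12.4 TPM in exSI replicate 2. Pdgfrb, at 1.25 TPM, was the only mesenchymal marker above 0 in that library. The endothelial markers summed to at most 0.448 TPM in any E13.5 library.

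**Figure D5:**
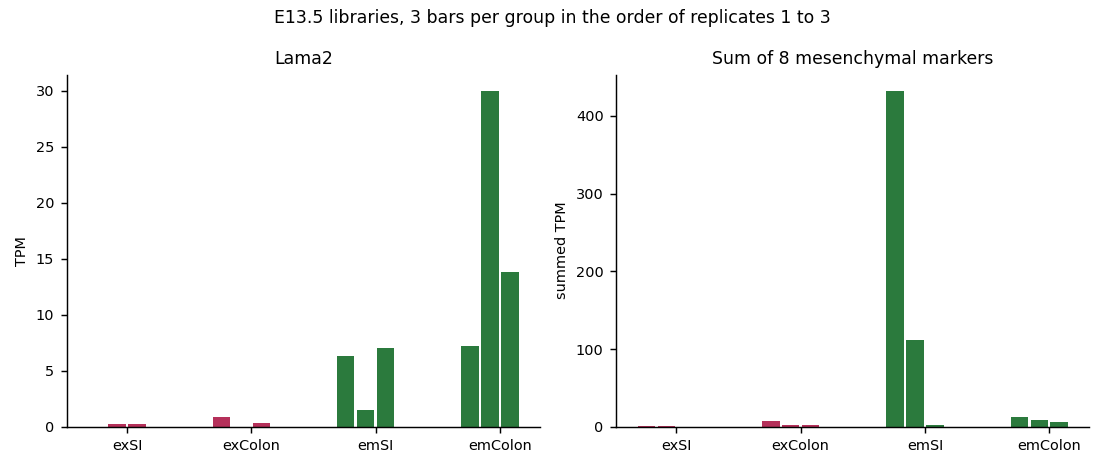
Lama2 TPM (left) and the summed TPM of 8 mesenchymal markers (right) in the 12 E13.5 libraries, 3 bars per group in the order of replicates 1 to 3. Lama2 is highest in emColon, at 7.20 to 30.0 TPM, where the marker sum is 6.49 to 12.4 TPM. Its coverage there is 1.46 to 4.68 reads per base, low for these TPM values.

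In share of the alpha chain sum of TPM, Lama2 took 51.1% to 59.7% in emColon, 5.29% to 37.5% in emSI and at most 4.28% in the extraembryonic E13.5 libraries. These shares rest on the uncertain Lama2 TPM. By coverage, Lama2 lay below Lama5 in every emColon and emSI library. In emColon it was at 1.46, 4.68 and 2.27 reads per base against 12.95, 55.2 and 54.7 for Lama5. Lama5 took 21.5% to 46.2% in the embryonic and 36.8% to 86.8% in the extraembryonic libraries, ranges that overlap. The other members varied widely at this stage. Col4a1 was at 2.46, 5.27 and 12.5 TPM in exSI, 33.7, 14.1 and 15.4 TPM in emSI, 16.2, 2.49 and 31.6 TPM in exColon and 12.4, 2.85 and 23.4 TPM in emColon, so that the colon groups ranged alike and exSI lay below emSI. In exSI against emSI, 15.7% of all genes tested did not overlap. Over both organs the Col4a1 difference of -0.71 had a 95% interval from -2.08 to 0.67. Sparc was at 145, 59.1 and 57.4 TPM in exSI, 118, 195 and 110 TPM in exColon, 210, 146 and 79.5 TPM in emSI and 273, 288 and 188 TPM in emColon (-0.80 ± 0.28, limma adjusted p = 0.26). Between organs, 0 of the 10 members that passed were called in colon against small intestine, beside 1.3% of all genes tested by limma (1469 had an unadjusted p under 0.05). The largest difference was Col4a2 at 1.60 ± 0.69 (limma adjusted p = 0.375).

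From E9.5 to E13.5, 5 members fell in the embryonic and 6 in the extraembryonic gut cells. Hspg2 fell by 2.24 on the log2 scale (SE 0.38) in embryonic and by 2.15 (SE 0.31) in extraembryonic gut cells (limma adjusted p = 0.000544 and 0.000148). In the embryonic cells, of the 10 members that passed the filter, 5 fell (Lama1, Lama5, Col4a1, Col4a2 and Hspg2) and Lama2 rose by 2.54 ± 0.50 (limma adjusted p = 0.00154), beside 20.4% of all genes tested. Lama2 passed the filter through the E13.5 libraries, so its rise was fixed in part by it, and its coverage in those libraries was low for its TPM. Lama1 differed by -2.10 ± 0.45 (limma adjusted p = 0.0027), and emColon replicate 3 had it at 0. In the extraembryonic cells, 6 of the 9 that passed fell (Lama1, Lama5, Col4a1, Nid1, Hspg2 and Sparc), beside 15.2% of all genes tested. Sparc fell by 1.85 (SE 0.31) and Nid1 by 2.00 (SE 0.43) (limma adjusted p = 0.00061 and 0.00354), with Nid1 at 0, 0.0259 and 0 TPM in exSI. Nid1 passed the filter through the E9.5 libraries, since 1 of the 6 extraembryonic E13.5 libraries was above 1 TPM (3.80 TPM), so its fall was fixed in part by it. The median of all genes tested was -0.46 in the embryonic and -0.28 in the extraembryonic contrast, and -0.24 and -0.15 after median-ratio scaling, on which Lama5 (-0.88) in the embryonic cells and Col4a1 (-1.45) and Lama1 (-1.05) in the extraembryonic cells lost their calls (limma adjusted p = 0.0759, 0.0538 and 0.0588). Genotype and stage change together in the extraembryonic contrast. In both contrasts, embryo pools at E9.5 stand against single embryos at E13.5, and magnetic enrichment is described for the E9.5 gut cells. The embryonic cells were also sorted by another gate at each stage. None of these can be told apart from stage. Genes above 1 TPM numbered 13222 to 13596 in the E9.5 gut libraries and 10382 to 12439 in those of E13.5. Without emSI replicates 1 and 2, 8 members were called in the embryonic cells, with Nid1 (-1.46), Lamc1 (-1.17) and Lamb1 (-1.08) added and Lama5 lost (-0.98).

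Between E6.5 and E9.5 Hspg2 rose in both lineages. In emGut against Epi, 8 of the 9 members that passed the filter rose, beside 29.7% of all genes tested, led by Lama1 (3.78 ± 0.27), Col4a1 (2.71 ± 0.42) and Col4a2 (2.66 ± 0.45) (limma adjusted p = 6.73e-08, 0.000104 and 0.00023). Lama5 was at -0.18 ± 0.28. Hspg2 rose by 1.68 ± 0.18 (limma adjusted p = 3.3e-06), from 6.14 to 10.1 TPM to between 22.1 and 36.5 TPM. The median of all genes tested was 0.30 in this contrast and 0.06 after median-ratio scaling, on which the same 8 members were called. In exGut against exEndo 1, 1 of the 9 members that passed rose and 2 fell, beside 30.3% of all genes tested: Hspg2 rose by 2.87 ± 0.21, Col4a1 fell by 1.72 (SE 0.42) and Nid1 fell by 1.61 (SE 0.31) (limma adjusted p = 7.15e-08, 0.00377 and 0.00069). Lama1 stood at 0.33 ± 0.23 and Sparc at 0.35 ± 0.31, and neither passed the test. Dissection by hand at E6.5 and sorting at E9.5 cannot be told apart from stage.

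The lineage by stage interaction tested whether the extraembryonic minus embryonic difference changed between these stages. It was called for 8 of the 9 members that passed the filter, beside 27.5% of all genes tested (adjusted p under 0.05, with no fold threshold). The largest changes were -4.43 ± 0.63 for Col4a1, -3.75 ± 0.75 for Col4a2 and -3.45 ± 0.35 for Lama1 (limma adjusted p = 8.92e-06, 0.000482 and 5.36e-08). Hspg2 alone had a positive value, 1.19 ± 0.25 (limma adjusted p = 0.000812), from -1.28 in exEndo 1 against Epi to -0.09 in exGut against emGut. Lama5 did not pass the test (-0.29 ± 0.33). The E6.5 and E9.5 differences shared no library.

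Wider lists of related genes were read in the same contrasts. Of 26 other basement membrane genes, 11 passed the filter in exEndo 1 against Epi and 8 rose, beside 33.4% of all genes tested that were called in either direction, led by Tinagl1 (4.42 ± 0.19), a secreted matrix glycoprotein gene, Egflam (2.47 ± 0.23) and Fbln1 (2.46 ± 0.21) (limma adjusted p = 8.69e-09, 3.1e-06 and 1.61e-06). The median over these 11 was 2.07. Of 14 collagen processing and crosslinking genes, 6 rose and 1 fell there, beside the same 33.4%, with a median of 0.95. P3h2, a collagen prolyl 3-hydroxylase gene, rose by 3.15 ± 0.19, the lysyl oxidase gene Loxl2 by 2.74 ± 0.24 and the prolyl 4-hydroxylase gene P4ha1 by 2.51 ± 0.21 (limma adjusted p = 1.1e-07, 1.9e-06 and 1.52e-06). In exEndo 1 against exEndo 2, 5 of these 14 fell and none rose, beside 6.41% of all genes tested, among them the collagen chaperone gene Serpinh1 (-1.25 ± 0.18, limma adjusted p = 0.00092). Receptor genes divided: of the 9 that passed, 2 rose and 4 fell in exEndo 1 against Epi, beside 33.4%. The syndecan gene Sdc4 rose by 3.71 ± 0.42, while Sdc1 fell by 2.82 (SE 0.24) and Itga6, the alpha subunit gene of laminin-binding integrins, fell by 2.59 (SE 0.25) (limma adjusted p = 1.6e-05, 1.53e-06 and 4.5e-06).

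In exGut against emGut these lists held 1 call, beside 2.35% of all genes tested. Col4a5, another collagen IV chain gene, was the one gene called of the 20 other basement membrane genes that passed, at 1.79 to 7.77 TPM in exGut and 4.68 to 15.1 TPM in emGut (-1.18 ± 0.27, limma adjusted p = 0.0164). None of 14 processing genes and none of 10 receptor genes was called. At E13.5 the calcium-binding matrix gene Smoc1 was called, higher in extraembryonic cells by 2.67 ± 0.60 (limma adjusted p = 0.0455), with 4.51 to 22.0 TPM against 0 to 9.66 TPM. It was 1 of 17 other basement membrane genes, and none of 13 processing and 10 receptor genes was called there, beside 0.625% of all genes tested. The lineage by stage interaction, called for 27.5% of all genes tested, was called for 7 of 20 other basement membrane genes, of which Col18a1 was positive and Tinagl1, Fbln1, Agrn, Fras1, Smoc1 and Lamb2 were negative. It was called for 8 of 14 processing genes, each negative, led by Loxl2 (-3.06 ± 0.67, limma adjusted p = 0.00109). It was called for 6 of 10 receptor genes, with Itga6, Itga3, Sdc1 and Bcam positive and Sdc4 and Itgb1 negative.

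Other contrasts held larger changes in these lists. In exGut against YsEndo, Sdc1 rose by 4.80 ± 0.20 (limma adjusted p = 2.29e-10), from 1.93 to 3.46 TPM in YsEndo, and 11 of 19 other basement membrane genes rose and 1 fell, beside 42.4% of all genes tested. Of all 12801 genes tested there, 4138 were called as higher and 1285 as lower, with a median log2 difference of 0.59. The list counts were not repeated with median-ratio scaling. Among the 11 genes that rose, Frem1 and Smoc2 passed the filter through exGut alone, so that their rise was fixed in part by it. They were listed at 0 in all YsEndo libraries, with medians of 16.8 and 15.5 TPM in exGut. In hindgut against midgut, Fbln2 rose by 3.82 ± 0.40 in the extraembryonic and 2.93 ± 0.55 in the embryonic cells, and Sdc4 fell by 2.25 (SE 0.16) and 2.44 (SE 0.14), beside 11.3% and 13.9% of all genes called. Fbln2 was at most 0.654 TPM in exMidgut, so that its extraembryonic rise was fixed in part by the filter. From E9.5 to E13.5, Nid2, the second nidogen gene, was called as lower in both origins (limma adjusted p = 7.87e-08 in extraembryonic and 2e-06 in embryonic cells), beside 15.2% and 20.4% of all genes tested, and it passed the filter through the E9.5 libraries alone, so that its fall was fixed in part by it. Nid2 was listed at 0 in all exSI, exColon and emColon libraries and was at most 0.567 TPM in emSI, against 8.23 to 63.8 TPM in the E9.5 gut.

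Over the 12 group means of log2(TPM + 1), some pairs of members had like profiles. As a description, Pearson's r was 0.94 between Col4a1 and Col4a2, 0.89 between Col4a1 and Nid1, 0.89 between Col4a2 and Sparc, 0.85 between Lama1 and Lamb1, and 0.83 between Lama1 and Lamc1. Between Lama1, Lamb1 or Lamc1 and Col4a1, Col4a2, Nid1 or Sparc, r ran from 0.42 (Lamc1 and Col4a2) to 0.72 (Lama1 and Col4a1). It was -0.02 between Hspg2 and Col4a1, and Lama2 had negative values with every other member, from -0.56 with Lama5 to -0.09 with Sparc. The group means share stage and library preparation, so these values carry no test. Among 10889 genes compared, those most like Lama1 were Lztr1 (0.87), Smad6 (0.86) and Snrk (0.85), and those most like Lama5 were Thoc2 (0.94), Taok1 (0.94) and BC005561 (0.93). Those most like Col4a1 were Zfp280b (0.95), Kdelr3 (0.94) and Fbxo9 (0.93), and those most like Sparc were Cnppd1 (0.92), Ginm1 (0.91) and Tmem263 (0.90).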

How the data were processed

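Adapter removal by the authors used cutadapt 4.1, alignment to mm10 plus both reporter sequences used STAR 2.7.9a, and StringTie 2.0.6 estimated expression. The deposited tables give TPM, FPKM and coverage (mean reads per base) for each gene of 1 library. These are estimates, not counts, so no count model was used, and a 0 can be a failed estimate. Here TPM was summed per gene identifier, and log2(TPM + 1) of protein-coding genes off the Y chromosome (21704 identifiers by GENCODE vM21 type) with TPM above 1 in at least 4 libraries (3 within E13.5) was tested with limma 3.58.1 (trend, two-sided, Benjamini-Hochberg) in 20 comparisons. A difference on this scale understates changes of low genes. The script was tested on simulated data: in exGut against emGut it recovered 87% of 100 genes changed by a log2 difference of 1.5 and 100% of those changed by 3, and at E13.5 39% and 86%. These percentages are over many genes and do not give the recovery of a single member. In exGut against emGut, fitted without a term for region, the SE was 0.42 for Col4a1, 0.50 for Col4a2 and 0.35 for Sparc. It was 0.13 for Lamb1 and 0.14 for Hspg2. Recovery at the wider SE was not tested. The members and lists were chosen with earlier results of these data known. Named genes were all members, the list genes called in exGut against emGut, at E13.5 between origins and in both interactions, up to 3 of the largest called genes per list elsewhere, and the 3 genes most like 4 members. Of the 13 pairs of groups checked, exEndo 1 and exEndo 2 alone had every same-numbered pair of libraries correlated over 0.1 in its deviations (0.17 to 0.40), a hint from the data that the numbers pair dissected embryos. Alternatives were a pseudocount of 0.1, no filter, median-ratio scaling, FPKM, each library left out, a replicate block, and covariates. The promoter windows are RefSeq's for GRCm38.p6.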

Additional observations from a re-analysis of the deposited data

Results flagged for a closer look

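In 78 sets of 4 libraries (a member in a group), 5 held a library far from the other 3 by Dixon's criterion, and chance alone gives about 1 in 20. Lamc1 was at 72.6 TPM in exEndo 2 replicate 2, against 20.1 TPM in the next library. Nid1 was at 22.9 TPM in exEndo 1 replicate 1, against 13.6 TPM in the next. Lama5 was lowest in exHindgut replicate 1, at 18.7 TPM, with the next at 26.5 TPM. Lama1 was at 1.24 TPM in Epi replicate 3, against 0.418 TPM, and Lama2 at 0.0963 TPM in exMidgut replicate 2, with the others listed at 0.

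The extraembryonic minus embryonic difference changed between E6.5 and E9.5, by the test of the interaction itself (limma, adjusted over all genes), in 8 members. The log2 change was -4.43 for Col4a1, -3.75 for Col4a2, -3.45 for Lama1, -3.00 for Nid1, -1.92 for Sparc, -1.22 for Lamc1, -0.97 for Lamb1 and 1.19 for Hspg2.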

How the results depend on the processing

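Limits are the small groups of 3 or 4 libraries, low input, and low TPM at E13.5. Of 326 recomputed counts of called members, 320 stayed within 1.5 times the reported count. The others were 3 in place of 5 in exGut against YsEndo under median-ratio scaling and on FPKM values, 1 in place of 6 in YsEndo against exEndo 2 under median-ratio scaling and 2 to 7 when each library was left out, and 0 or 1 in exHindgut against emHindgut when each library was left out. The replicate block left 4 members called in exEndo 1 against exEndo 2 and changed no member's call in any comparison. Same-numbered libraries also correlated above other-numbered ones, but weakly, in exSI and emSI (0.050 to 0.072 against at most -0.009) and in exColon and emColon (0.015 to 0.028 against at most 0.007). With gut region as covariate, exGut against emGut called 587 genes in place of 316, none a member. Counts over all genes also moved by more than 1.5 times without the filter on low values, with 173 for 321 in exMidgut against emMidgut, 223 for 378 in exHindgut against emHindgut, 8 for 13 in the origin by region interaction, 52 for 78 between origins at E13.5, 8 for 30 in exColon against emColon, 8 for 84 in exSI against emSI and 81 for 162 between organs, and with a pseudocount of 0.1, with 0 for 13 in that interaction and 10 for 30 in exColon against emColon. Signs turned only for members that passed no test: Nid1 in exGut against YsEndo (-0.013, median-ratio scaling), and at E13.5 Lamc1 (-0.013) and Hspg2 (-0.053) with median-ratio scaling, Hspg2 on FPKM values (-0.056), and Col4a2 (0.22) and Hspg2 (-0.064) without emSI replicates 1 and 2. With each library left out in turn, Lamc1 ran from -0.38 to 0.28 in exEndo 1 against exEndo 2 and from -0.10 to 0.12 in exGut against emGut, and at E13.5 Lama1 from -0.15 to 0.47, Lamc1 from -0.16 to 0.26, Col4a2 from -0.71 to 0.28 and Hspg2 from -0.40 to 0.25. The cause of these shifts was not tested.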
